A study of Mus musculus with 4 samples.

Results

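The 5 mouse miRNAs described here are mmu-miR-463, mmu-miR-463*, mmu-miR-470, mmu-miR-470* and mmu-miR-471, which come from 3 hairpins of a miRNA cluster on the X chromosome. They are 5 of the 567 mouse miRNAs on the array. They were selected by name, with their signals and detection calls on these same 4 arrays known, so their levels are given as a description with no test. Sertoli cells are the somatic cells that nurse germ cells in the seminiferous tubule. They were purified from the testes of male B6129 mice aged 5 to 7 weeks. By the study's methods each RNA pool came from 5 to 7 mice. The study's legend for the array heat map gives a single pool size within that range. Sham mice received a 0.2 cm Silastic implant under the skin and saline injections. Flut+Acy mice received the androgen receptor antagonist flutamide through such an implant and the gonadotropin-releasing hormone antagonist acyline at 20 mg/kg by intraperitoneal injection, and Flut+Acy+T mice received these drugs and a testosterone implant. The sample labels name the arrays control, flutamide and Testosterone, and the study's methods give the rest. Sham and Flut+Acy+T had 1 array each, and Flut+Acy had 2. How long the mice behind the arrays were treated is not given in the sources used here. Nothing in the labels says whether the 2 Flut+Acy arrays are separate pools, so their spread may be technical. The array measures no mRNA, so the identity of the Sertoli cells could not be checked against marker genes. In bulk RNA, fewer cells of a type and less RNA per cell cannot be told apart.

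A miRNA hairpin is cut by Dicer into a duplex, and either strand, the 5p arm or the 3p arm, can be loaded into an Argonaute protein and guide it to target mRNAs. The star in older names marks the strand thought to be the lesser one. Target choice rests mainly on the seed, a short stretch near the 5′ end. The X-linked cluster that holds these hairpins evolves rapidly, is active in the testis, and includes miRNAs made in germ cells during meiosis, when most genes of the X chromosome are silent.

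All 5 miRNAs were matched to the mature miRNAs of RefSeq (assembly GRCm38.p6) by the distances between their start positions on the minus strand, which were the same in the array annotation (mm9) and in RefSeq. By this match mmu-miR-463 is the 3p arm and mmu-miR-463* the 5p arm, mmu-miR-470 is the 5p arm and mmu-miR-470* the 3p arm, and mmu-miR-471 is the 5p arm. The sequences are shown with the seed, bases 2 to 8, in capitals, because both arms of a hairpin were measured and they differ there.
mmu-miR-463: uGAUAGACaccauauaagguag
mmu-miR-463*: uACCUAAUuuguuguccaucau
mmu-miR-470: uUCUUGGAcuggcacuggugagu
mmu-miR-470*: aACCAGUAccuuucugagaaga
mmu-miR-471: uACGUAGUauagugcuuuucac
The 5 seeds all differed from each other, and none of the other 1678 mature mouse miRNA sequences in the table had the same 7 bases. The seed of mmu-miR-471 shared its first 6 bases with that of mmu-miR-741-5p, from the neighbouring hairpin of the cluster.

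The miRNAs lie on chromosome X within 21361 bases of each other (start to start, mm9). mmu-miR-471 was annotated at chrX:64045809-64045830, mmu-miR-463 at chrX:64052411-64052429, mmu-miR-463* at chrX:64052448-64052469, mmu-miR-470* at chrX:64067136-64067155 and mmu-miR-470 at chrX:64067170-64067184. These are the bases that the array probes cover, and they include the whole mature sequence for mmu-miR-463* and mmu-miR-471 alone. The covered bases are in capitals in the same sequences, since the probes decide what the signals can tell apart.
mmu-miR-463: ugaUAGACACCAUAUAAGGUAG
mmu-miR-463*: UACCUAAUUUGUUGUCCAUCAU
mmu-miR-470: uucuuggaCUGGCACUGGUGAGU
mmu-miR-470*: aaCCAGUACCUUUCUGAGAAGA
mmu-miR-471: UACGUAGUAUAGUGCUUUUCAC
The probes of mmu-miR-470 began at base 9 or 10 of 23, so they covered none of its seed. The longest run of bases that a covered stretch had in common with any other mature miRNA in the table was 9 for mmu-miR-463, mmu-miR-463* and mmu-miR-471, and 10 for mmu-miR-470 and mmu-miR-470*.

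The total signal of a miRNA combines its probes and is given in scanner units with the error computed by the scanner software, before any normalization between arrays. Signals of different probes are not amounts of RNA and do not rank the miRNAs. The 5 miRNAs were low or not detected on Sham, detected on both Flut+Acy arrays, and not detected on Flut+Acy+T. A miRNA was taken as detected where the software called it so.

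mmu-miR-463 gave a total signal of 1.52 ± 2.47 on Sham, 147.0 ± 10.9 and 194.1 ± 14.3 on the Flut+Acy pair, and -94.2 ± 123.3 on Flut+Acy+T. Sham and Flut+Acy+T were each within 1 error of 0, and both Flut+Acy arrays were far above that. None of its 20 spots was well above background on Sham, against 20 of 20 on each Flut+Acy array. The Flut+Acy arrays differed by more than their errors for this miRNA.

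mmu-miR-463*, the opposite arm of that hairpin, gave -0.0752 ± 1.74 on Sham, 18.1 ± 2.25 and 24.4 ± 3.12 on the Flut+Acy pair, and 209.9 ± 88.4 on Flut+Acy+T. It was detected on Flut+Acy, with 9 of 20 spots well above background on each array, and on neither of the others. Its Flut+Acy+T value was higher than those of Flut+Acy, but the signal was 2.38 times its error there.

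mmu-miR-470 gave 18.6 ± 2.99 on Sham, 587.8 ± 52.1 and 595.9 ± 51.9 on the Flut+Acy pair, and 279.8 ± 126.1 on Flut+Acy+T. The Flut+Acy arrays lay within 1 error of each other and far above Sham, where the miRNA was detected. Its Flut+Acy+T value fell between them and was not detected, at 2.22 times its error.

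mmu-miR-470*, from the same hairpin, gave 10.3 ± 2.60 on Sham, 285.7 ± 22.1 and 298.0 ± 23.1 on the Flut+Acy pair, and 79.9 ± 123.6 on Flut+Acy+T. Like mmu-miR-470 it was detected on Sham and on both Flut+Acy arrays. Its Flut+Acy+T value also fell between those of Sham and Flut+Acy. It was not detected there, at 0.646 times its error, so its place against Sham is not known.

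mmu-miR-471 gave 7.59 ± 2.53 on Sham, 255.0 ± 18.6 and 284.6 ± 20.5 on the Flut+Acy pair, and 205.4 ± 124.5 on Flut+Acy+T. Its Sham signal was 2.997 times its error and it was not called detected there. The Flut+Acy+T value was less than 1 error below both Flut+Acy arrays.

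**Figure D1:**
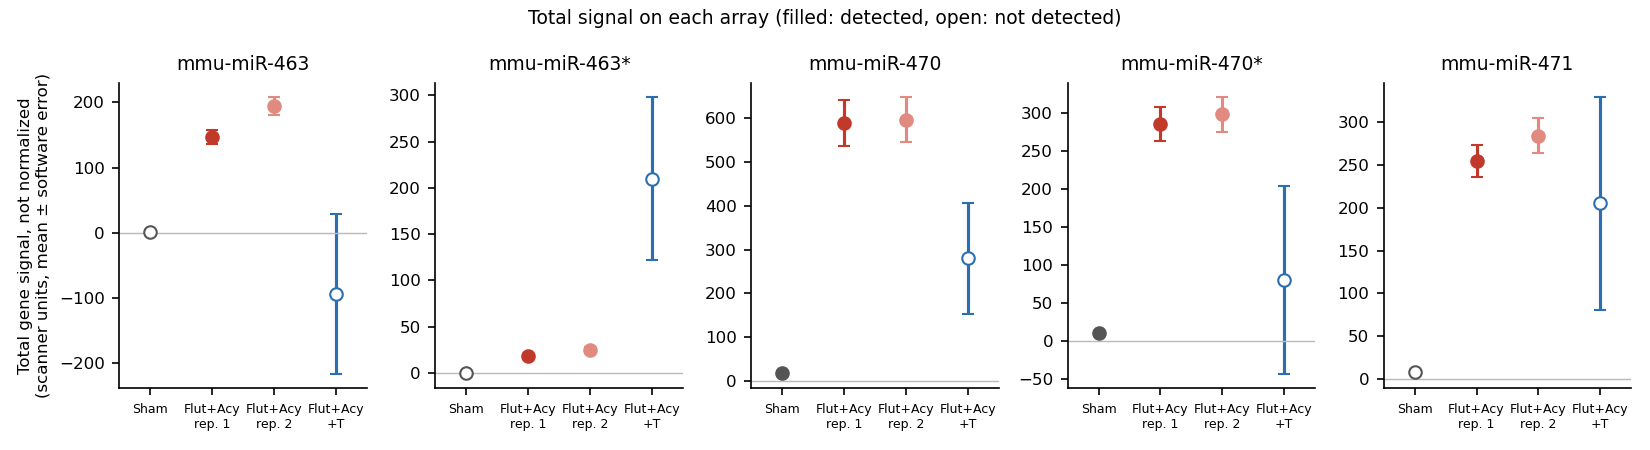
Total signal of each miRNA (scanner units, not normalized between arrays, each panel with its own linear axis) on the 4 arrays, with bars for the software's error. Filled points are detected and open points are not: all 5 miRNAs are detected on both Flut+Acy arrays, 2 are on Sham and none is on Flut+Acy+T, where the errors run from 88.4 to 126.1 units.

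The Flut+Acy+T array stood apart from the others. It detected 102 of the 567 mouse miRNAs, where the Sham array detected 193 and the Flut+Acy pair 275 and 270, and its lowest detected total signal was 238.4 units, against 0.766 to 2.67 on the other arrays. The 7 negative control sequences, which fill 672 spots, had medians of 1.14 to 7.45 units on the other 3 arrays. On Flut+Acy+T their medians ran from -57.4 to 2992 units. The software flagged 535 of that array's spots as nonuniform, against 0 to 4 on the others. Each Flut+Acy+T value below therefore stands beside a background of that size.

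The spot signals of the miRNAs on Flut+Acy+T lay within or below the range of the negative controls. The probe medians of mmu-miR-463 were -67.8 and -67.5 units, lower than all 7 control medians. The brightest probe median, that of the 15-base probe of mmu-miR-470 at 377 units, was exceeded by 4 of the 7 controls and by 41.1% of the control spots. For the other probes, between 43.3% and 57.3% of the control spots were brighter. Of the 20 spots of each miRNA, 1 spot of mmu-miR-463* and none of the others was well above background on this array.

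**Figure D2:**
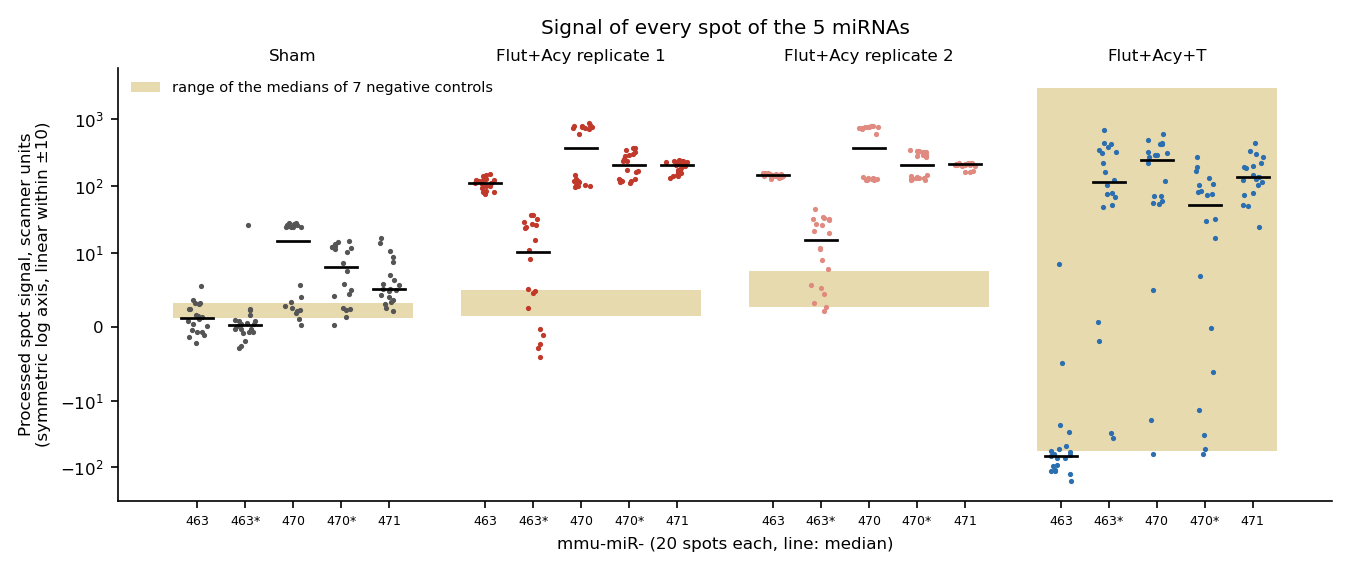
Processed signal of each of the 20 spots of the 5 miRNAs on every array (scanner units, symmetric log axis that is linear within ±10), with a line at the median and a band from the lowest to the highest median of the 7 negative controls. On Flut+Acy, 4 miRNAs lie wholly above the band, while on Flut+Acy+T the band runs from -57.4 to 2992 units and holds the medians of 4 miRNAs.

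To compare arrays, the total signals were quantile-normalized over the 567 miRNAs, floored at 5.46 units and converted to log2. All 5 miRNAs exceeded Sham by 2-fold or more in Flut+Acy, and so did 22.6% of the 283 miRNAs that Sham or Flut+Acy detected. None was at least 2-fold lower, against 16.6% of the 283. The miRNAs were chosen with these values known, so nothing is read from the counts. The log2 differences between Flut+Acy and Sham ran from 1.88 to 4.36 with a median of 2.27, beside a median of -0.18 over the 283. Without Flut+Acy replicate 1 or 2, the difference was 3.01 or 2.81 for mmu-miR-463 in place of 4.36, and 0.62 or 0.53 for mmu-miR-463* in place of 2.67. The floor rose to 27.2 and 25.9 units in these settings, and mmu-miR-463* then did not reach 2-fold.

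For the arms detected on both sides, the log2 difference between Flut+Acy and Sham was 2.22 for mmu-miR-470 and 1.88 for mmu-miR-470*. The SD of the Flut+Acy pair (n = 2) was 0.11 for the first and 0.10 for the second. For mmu-miR-463, not detected on Sham, the Flut+Acy mean was 8.04-fold above the lowest normalized signal that Sham detected, 23.63 units. For mmu-miR-463*, also not detected on Sham, it was 1.47-fold above. These folds are not lower limits, since mmu-miR-471 went undetected on Sham at 55.06 units. The log2 differences of the mmu-miR-463 arms (4.36 and 2.67) rest on the floor or on an undetected signal and are not limits either. For mmu-miR-471, just short of detection, the fold against its own Sham signal was 4.84, the same value as its log2 difference of 2.27. All these folds are for quantile-normalized signals. Under normexp the log2 difference was 1.16 for mmu-miR-463, 0.10 for mmu-miR-463* and 0.99 for mmu-miR-471.

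The Flut+Acy pair differed little for any of them. Replicate 2 minus replicate 1 was 0.21 for mmu-miR-463, 0.10 for mmu-miR-463*, -0.15 for mmu-miR-470, -0.14 for mmu-miR-470* and -0.13 for mmu-miR-471 on the log2 scale. Over the 263 miRNAs detected on both arrays, the size of that difference had a median of 0.09 and a 90th percentile of 0.29. Sham is a single array, so its own spread is not known.

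**Figure D3:**
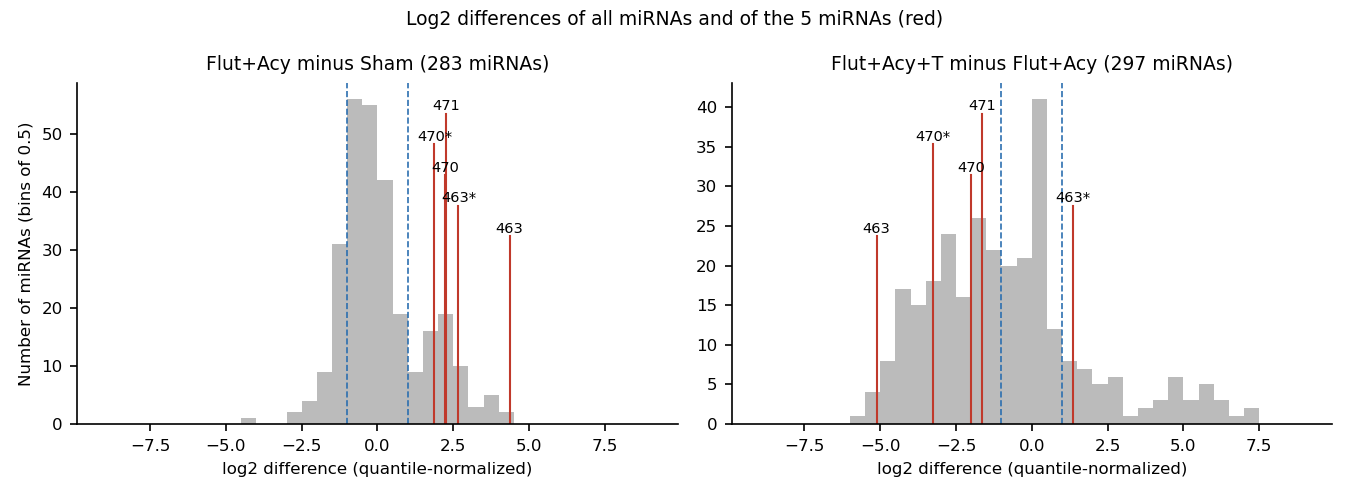
Number of miRNAs by log2 difference (quantile-normalized signals, bins of 0.5) between Flut+Acy and Sham, left, and between Flut+Acy+T and Flut+Acy, right. Red lines mark the 5 miRNAs and dashed lines 2-fold: all 5 lie to the right of 1 on the left panel, and on the right panel 4 lie below -1 and mmu-miR-463* lies at 1.36.

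Testosterone replacement was compared with Flut+Acy in the same way. mmu-miR-463, mmu-miR-470, mmu-miR-470* and mmu-miR-471, 4 of 5, were lower on Flut+Acy+T by 2-fold or more, and so were 50.8% of the 297 miRNAs that either group detected. The log2 differences were -5.12, -1.99, -3.27 and -1.64, beside a median of -1.11 over the 297. None of the 4 was detected on Flut+Acy+T. The lowest quantile-normalized signal that Flut+Acy+T detected was 103.5 units. Flut+Acy exceeded it by 2.74-fold for mmu-miR-470*, 2.57-fold for mmu-miR-471 and 1.83-fold for mmu-miR-463. These folds are not lower limits, since mmu-miR-470 went undetected on Flut+Acy+T at 129.5 units. Its total signal there, 279.8 units, was above both Flut+Acy totals of mmu-miR-463. The fold of 3.97 for mmu-miR-470 is set against that undetected signal and is the same value as its log2 difference. No such fold is given for mmu-miR-463*, whose Flut+Acy signal was under the lowest signal that Flut+Acy+T detected.

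These folds and differences depend on the scaling. With 75th percentile scaling over the miRNAs detected on all 4 arrays, the log2 difference was -1.60 for mmu-miR-470 and -0.92 for mmu-miR-471. mmu-miR-471 also missed 2-fold under normexp (-0.82) and without normalization (-0.39). This left 3 of 5 miRNAs lower by 2-fold or more in each of these settings. No share over all miRNAs is given for them, so nothing is read from that count. In the total signals before normalization, Flut+Acy+T was at 0.473 of the Flut+Acy mean for mmu-miR-470, 0.274 for mmu-miR-470* and 0.761 for mmu-miR-471. Of the 5 miRNAs, 3 were within 2-fold of Sham on Flut+Acy+T, and 41.3% of the 298 miRNAs detected on any array were. Those were mmu-miR-463 (log2 difference -0.76), mmu-miR-470 (0.23) and mmu-miR-471 (0.64). mmu-miR-470* stood at -1.39 and mmu-miR-463* at 4.03. Each of these values rests on an array where the miRNA was not detected. Whether testosterone returned the 5 miRNAs to the level of Sham was not measurable at the background of this array.

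Both arms of the mmu-miR-470 hairpin were higher in Flut+Acy. The difference between Flut+Acy and Sham was lower for mmu-miR-470* than for mmu-miR-470 by 0.34 on the log2 scale, and in the total signals before normalization Flut+Acy was 31.8 and 28.3 times Sham for mmu-miR-470 and mmu-miR-470*. On Flut+Acy, the pair difference was -0.15 for one arm and -0.14 for the other. For the mmu-miR-463 hairpin no such comparison of change can be made, because neither arm was detected on Sham. Both of its arms were detected on Flut+Acy and on neither Sham nor Flut+Acy+T. With only 1 Sham array, how far the 0.34 between the arms exceeds the error of Sham cannot be said.

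Each miRNA was read by several probes that share a 3′ end and differ in how many bases they cover, 12 probes in all. On Flut+Acy, the probes of mmu-miR-463 covering 18 and 19 bases gave nearly equal total probe signals, with 52.0% and 51.0% of the miRNA's summed signal in the longer probe on the 2 arrays. For mmu-miR-471, whose probes cover 21 and 22 bases, the longer probe held 47.7% and 50.7%. For mmu-miR-470*, with 19 and 20 bases, the longer probe held 69.2% and 70.3%.

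The probes of mmu-miR-470 differed by more than that. The 14-base probe gave 74.0 and 85.5 units on Flut+Acy and the 15-base probe 513.7 and 510.4, so that 1 further base went with a 6.94-fold and a 5.97-fold higher signal. The 15-base probe therefore carried 87.4% and 85.7% of the signal. All 10 spots of that probe were well above background on Sham and none of the 14-base probe was, so the detection of mmu-miR-470 on Sham rests on 1 probe.

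The probes of mmu-miR-463* rose in signal with the bases covered. On Flut+Acy replicate 1 they gave -0.714, 1.73, 6.71 and 10.3 units for 19, 20, 21 and 22 bases, and on replicate 2 they gave 1.18, 3.07, 9.27 and 10.8 units. The order was the same on both arrays. The well-above-background spots on Flut+Acy were 4 of 5 for the 21-base probe and 5 of 5 for the 22-base probe on each array, and none for the shorter ones. On Flut+Acy+T the order differed, at 32.9, 77.1, 74.9 and 24.99 units, and every one of these was under 2 times its error.

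**Figure D4:**
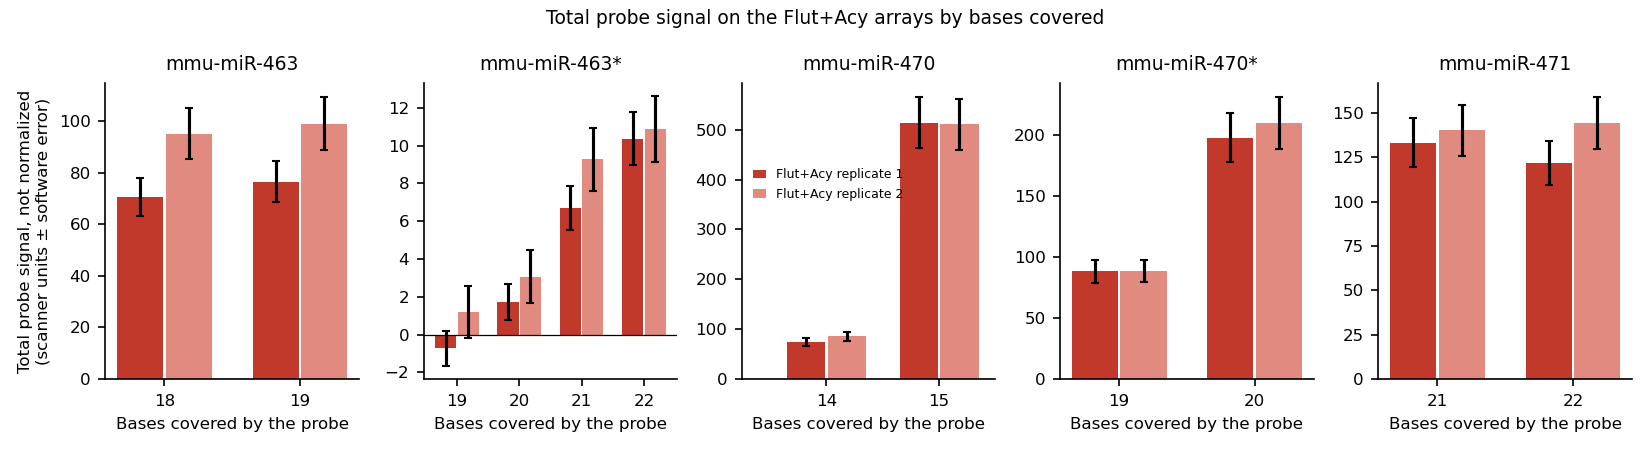
Total probe signal on the 2 Flut+Acy arrays (scanner units, not normalized between arrays, bars for the software's error) for each probe of the 5 miRNAs, by the number of bases it covers. The 15-base probe of mmu-miR-470 is 6.94 and 5.97 times as bright as the 14-base probe, the probes of mmu-miR-463* climb from about 0 to over 10 units, and those of mmu-miR-463 and mmu-miR-471 are nearly level.

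Among the 12 probes, 2 had a Sham signal above 3 times its own error. Before normalization, Flut+Acy was 30.3 times Sham for the 15-base probe of mmu-miR-470 and 26.3 times for the 20-base probe of mmu-miR-470*. On Sham, 10 of 10 spots of the first probe and 3 of 10 of the second were well above background. Without normalization, the median log2 difference over the 283 miRNAs was itself 1.75, so these folds are to be read against that shift.

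Among the 25 array miRNAs of the X-linked cluster, which spans 62354 bases, 19 exceeded Sham by 2-fold or more in Flut+Acy and none was 2-fold lower. Without the 5 miRNAs described here, 14 of 20 were higher, with a median log2 difference of 2.20, against 22.6% of the 283 miRNAs tested over the whole array. The 2 largest differences among the 20 were those of mmu-miR-878-5p (4.23) and mmu-miR-465b-5p (3.93), both not detected on Sham. At the low end, mmu-miR-465a-5p, mmu-miR-465c-5p, mmu-miR-881* and mmu-miR-883b-5p all stood at the floor in both groups, with a difference of 0.00. None of these was detected on Sham. mmu-miR-465a-5p was detected on both Flut+Acy arrays, and mmu-miR-465c-5p and mmu-miR-883b-5p on 1 each. For these miRNAs the floor set the 0.00, which does not show that they were unchanged. mmu-miR-881* was not detected on any array. mmu-miR-878-3p (0.70) was within 2-fold although it was detected on Sham and on both Flut+Acy arrays. Of the 20, 8 were detected on Sham, 17 by both Flut+Acy arrays and 3 by the Flut+Acy+T array. The 5 miRNAs described here lay among their neighbours: their range of 1.88 to 4.36 was inside or just above that of the other cluster miRNAs.

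**Figure D5:**
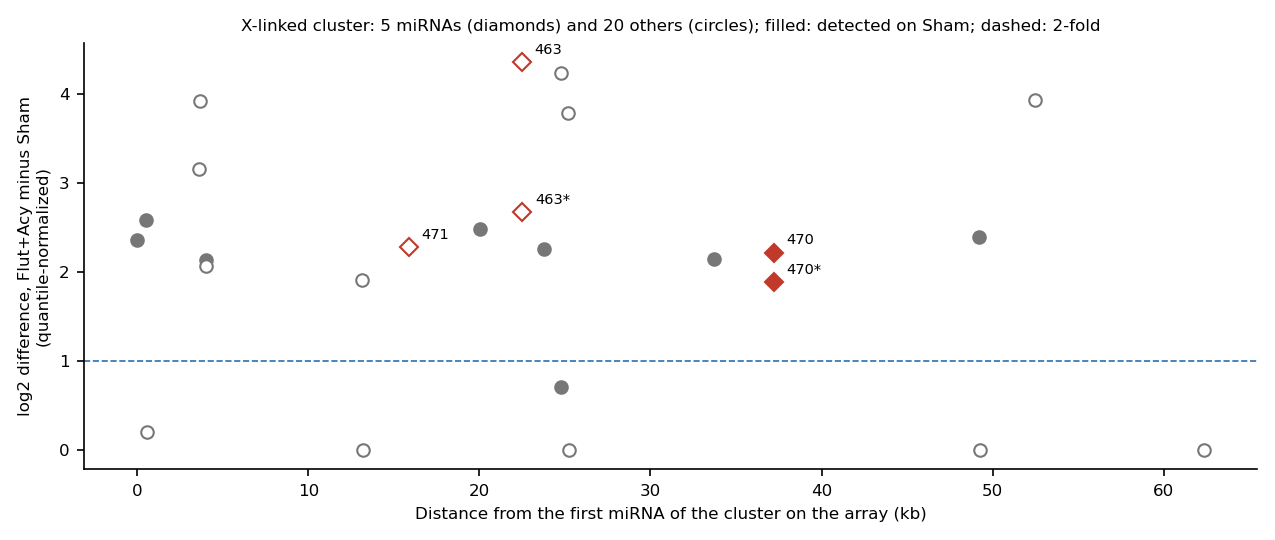
Log2 difference between Flut+Acy and Sham (quantile-normalized signals) of the 25 cluster miRNAs against their distance in kb from the first of them on the array. Diamonds are the 5 miRNAs and circles the other 20, filled symbols were detected on Sham, and the dashed line is 2-fold. Above it lie 19 symbols, from 0.0 to 52.49 kb, and the last symbol, at 62.34 kb, lies at 0.0.

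The miRNAs whose pattern over the 4 arrays was closest to the mean pattern of the 5 were found by the root mean square distance between centred log2 signals, among 258 other miRNAs detected on both Flut+Acy arrays. They were mmu-miR-741 (0.10), mmu-miR-465c-3p (0.14), mmu-miR-106a (0.22), mmu-miR-297c (0.22) and mmu-miR-883a-3p (0.25), where the median over the 258 was 1.40. Of these, mmu-miR-741, mmu-miR-465c-3p and mmu-miR-883a-3p belong to the same cluster. mmu-miR-741 and mmu-miR-465c-3p were also detected on Flut+Acy+T, with differences from Flut+Acy of -2.18 and -1.84. mmu-miR-106a and mmu-miR-297c were detected on neither Sham nor Flut+Acy+T, and the floor set their signals on both arrays. The 5 miRNAs themselves were at distances of 0.20 for mmu-miR-470, 0.23 for mmu-miR-471, 0.69 for mmu-miR-470*, 1.26 for mmu-miR-463 and 1.51 for mmu-miR-463*. The distance is a description over 4 points, of which 1 is the noisy array.

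Markers of some other cell types moved with the comparison. Of 6 miRNAs known from meiotic and post-meiotic germ cells, 5 exceeded Sham by 2-fold or more in Flut+Acy, beside 22.6% of the 283 miRNAs. The list's median log2 difference of 2.00 is close to that of the 5 miRNAs described here. miR-34c gave total signals of 140.7 on Sham, 2339 and 2421 on the Flut+Acy pair and 932.5 on Flut+Acy+T, and a difference between Flut+Acy and Sham of 2.02. miR-449a gave 39.8, 801.3, 678.6 and 361.6 on the same arrays, and a difference of 1.60. miR-449b was not detected on any array. The summed normalized level of this list was 1678 for Sham, 7151 and 6013 for the Flut+Acy pair and 2480 for Flut+Acy+T, and that of the 5 miRNAs was 251.9, 1328, 1254 and 333.7. The summed levels of both were higher on the Flut+Acy arrays than on Sham. None of the 5 was detected on Flut+Acy+T, so the place of their sum there is not known. From Flut+Acy to Flut+Acy+T, miR-34b-3p rose by 2.26 on the log2 scale and was detected on both. miR-34b-5p (-1.42) and miR-34c (-1.73) fell and were also detected on both. The values of miR-34c* (-4.11) and miR-449a (-1.91) were lower too, but neither was detected on Flut+Acy+T. Of the 297 miRNAs that either group detected, 50.8% were lower by 2-fold or more. The part of germ cell RNA in the result was not tested.

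The lists of other cells gave lower or mixed values. Of 5 miRNAs of muscle and peritubular myoid cells, 4 fell below Sham by 2-fold or more in Flut+Acy, miR-145 among them at a log2 difference of -1.05. Of 6 miRNAs of blood, 2 were 2-fold lower, including miR-451 (-1.44), and miR-144 was not detected. Over the whole array, 16.6% of the 283 miRNAs were at least 2-fold lower. The count of 2 of 6 is not read as a shift of the blood list. These falls are in quantile-normalized signals. Before normalization, miR-145 gave 57.5 on Sham and 97.5 and 120.2 on Flut+Acy, and miR-451 gave 101.7, 111.2 and 127.9. The other muscle miRNAs also had higher totals on Flut+Acy than on Sham. Without normalization, the median log2 difference over the 283 miRNAs was itself 1.75. Both endothelial miRNAs were within 2-fold. The summed normalized level of the muscle list was 5142 on Sham and 2717 and 2860 on Flut+Acy, and that of the blood list 1038 on Sham and 515.6 and 502.5 on Flut+Acy. Of the 2 miRNAs of gonadal somatic cells, miR-202-3p was within 2-fold (-0.37) and miR-202-5p, not detected on Sham, was higher in Flut+Acy. The part of a shift in cell types in these values was not tested either.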

How the data were processed

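Total RNA of purified Sertoli cells was hybridised to Agilent single-colour mouse miRNA arrays. The deposited scanner files (Feature Extraction 9.5.3.1 per the file headers) hold intensity on a linear scale for every spot, with background subtracted, and a total signal and error for each miRNA, with no normalization between arrays. The authors also deposited a table of quantile-normalized intensity, used as an alternative only. How spots were combined in that table is not given in the sources used here.

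Quantile normalization of the total signals, over 567 mouse miRNAs and 4 arrays, was done in Python 3.11.15 (pandas 2.3.3, NumPy 2.4.6), with viral miRNAs and controls left out. Values below 5.46 units were raised to it before log2; this floor is the median, over the arrays, of each array's lowest normalized value for a detected miRNA. A change is a difference of at least 2-fold. No test was run, since the miRNAs, the lists and the rules for the named miRNAs (the 5, the 5 nearest in pattern, the extremes of the cluster and 1 or 2 examples of a marker list) were chosen with earlier results of these data known. Sham and Flut+Acy+T have 1 array each, and the number of arrays limits the precision. Alternatives were 75th percentile scaling, no normalization, processed spot signals with and without outlier spots, normexp with an offset of 50 (limma 3.58.1 in R 4.3.3), a floor of 1 unit, the authors' table, and leaving out each Flut+Acy array. Normalizing Sham and Flut+Acy alone and taking spot medians were added after seeing the data; in the first, the floor's rule gave a value below 0, so the lowest detected signal above 0 (1.05 units) was used. The normalization and contrast steps were tested on simulated data, with changes put into miRNAs detected on Sham only. Of 60 changed miRNAs, 56 were recovered after quantile normalization, with 1 false call. Every simulated miRNA counted as detected and all arrays had equal noise. Undetected signals and an array as noisy as Flut+Acy+T were therefore not covered.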

Additional observations from a re-analysis of the deposited data

How the results depend on the processing

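All 60 differences between Flut+Acy and Sham of the 5 miRNAs, over the 12 other settings tried, 2 of them chosen after seeing the data, were above 0, and 56 were at least 2-fold. The other 4 came from normexp for mmu-miR-463* and mmu-miR-471, and from leaving out either Flut+Acy array for mmu-miR-463*. The normexp offset of 50 units compresses low signals. Among the 283 miRNAs, the share at least 2-fold higher in Flut+Acy ran from 6.01% under normexp to 74.9% without normalization. Of the 55 differences between Flut+Acy+T and Flut+Acy, 44 were below 0, and the 11 above 0 were all those of mmu-miR-463*. The count lower by 2-fold or more was 3 in place of 4 under normexp, without normalization and with 75th percentile scaling over the miRNAs detected on all 4 arrays, where mmu-miR-471 was at -0.82, -0.39 and -0.92. Under normexp, 3 of the 5 miRNAs exceeded Sham by 2-fold or more in Flut+Acy, beside 6.01% of the 283 miRNAs. The median difference between Flut+Acy and Sham was 1.02 there, and 10 cluster miRNAs were at least 2-fold higher. Also under normexp, 5 were within 2-fold of Sham in Flut+Acy+T. For the counts on Flut+Acy+T, no share over all miRNAs is given in these settings, so nothing is read from them. The median difference between Flut+Acy and Sham was 3.64 with 75th percentile scaling over the miRNAs detected on all 4 arrays, 2.81 with that scaling over all miRNAs, 4.99 without normalization and 2.61 in the authors' table. With either Flut+Acy array left out it ran from 1.97 to 2.12. In those settings 4 of the 5 miRNAs were at least 2-fold higher, beside 15.5% of the 283 without replicate 1 and 16.3% without replicate 2. Beside those medians, the median of all 283 miRNAs was 0.40, -0.34, 1.75 and -0.12 in the first 4 of these settings, so that the 5 miRNAs stood 3.24, 3.15, 3.24 and 2.73 above it. With 75th percentile scaling over the miRNAs detected on all 4 arrays, and without normalization, 1 of the 5 was within 2-fold of Sham in Flut+Acy+T, and mmu-miR-470* turned from below Sham there to above it, at 1.08 and 2.95. The gap between the arms of the mmu-miR-463 hairpin, with mmu-miR-463* lower by 1.69, turned to 0.76 higher with a floor of 1 unit. With at least 1 spot well above background as the rule for detection, 4 of the 5 miRNAs were detected on Sham and 1 on Flut+Acy+T.

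In the 2 settings chosen after seeing the data, the values were these. With Sham and Flut+Acy normalized alone, the median difference was 2.86, and with spot medians summed over probes it was 2.57, with all 5 miRNAs at least 2-fold higher in both. No paired analysis was possible because Sham and Flut+Acy+T have 1 array each. Single arrays and the background of Flut+Acy+T limit every comparison with them.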

Other observations

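In the table of quantile-normalized values that the authors deposited, mmu-miR-470 and mmu-miR-470* had identical entries on 3 of the 4 arrays: 32.8 for Sham and 204.5 and 176.3 for the Flut+Acy pair. The Flut+Acy+T entries were 11.3 and 8.38. No other miRNAs of the 567 shared their entries on Sham and both Flut+Acy arrays. The scanner files hold different probes, and different total signals, for the 2 arms on each of these arrays. Single entries were shared within a column by 4 miRNAs for Sham, 10 and 2 for the Flut+Acy pair and 4 for Flut+Acy+T. The arms of the mmu-miR-470 hairpin can be told apart in the scanner files on all 4 arrays, but not in the deposited table on these 3, and the cause was not tested.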
